A study of Rattus norvegicus with 16 samples.

Results

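The Akr1c genes encode cytosolic aldo-keto reductases, enzymes that use NADPH to turn ketones and aldehydes into alcohols. They were examined here in the livers of adult male rats that had, or had not, been exposed to an environmental mixture through their mothers and raised by a foster dam. Described here are 4 genes of a tandem cluster on rat chromosome 17, Akr1c1, Akr1c2, Akr1c13 and Akr1c14, together with Akr1d1 on chromosome 4, which makes 5 genes of the 11092 features bright enough in liver to be tested. They were chosen by symbol, after their accessions on the array had been matched to a current gene table. The choice was made with results of these same arrays known, so their differences between groups are given below as descriptions, without p-values.

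Aldo-keto reductases of the 1C family act on steroid hormones, bile acid intermediates, prostaglandins and the carbonyl products of lipid peroxidation, and in the liver they help to inactivate androgens, progestins and glucocorticoids. Rat Akr1c14, long known as Akr1c9, is the hepatic 3alpha-hydroxysteroid dehydrogenase. Akr1d1, the steroid 5beta-reductase, carries out the step before it, reducing the ring double bond of steroid hormones and of bile acid intermediates. Tandem duplication made the cluster, so that its genes resemble each other closely and probes of one can read RNA of another.

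Liver RNA of Sprague-Dawley males 78 to 86 days old was read on 16 two-colour Agilent arrays, 4 per group. C rats came from dams given corn oil and stayed with their own mothers. CC rats were control litters adopted by another control dam at birth. M rats came from dams that received methylmercury, polychlorinated biphenyls and organochlorine pesticides together, in the same oil, at 1.0 mg/kg/day, and stayed with their mothers. MM rats had the same exposure and were adopted by another exposed dam. Dosing ran from the start of gestation to postnatal day 20, so the livers were taken long after dosing had ended. The labels of the M arrays conflict, a description field naming them a control, and the exposure stated in their titles and treatment was followed. Each group held 8 pups, pooled at random in pairs, so each array stands for 2 rats, and p-values measure the spread between pools, some of which may hold littermates. On every array the liver RNA carried Cy5 and a universal reference RNA from 14 rat cell lines carried Cy3. Values are log2 ratios of liver over reference unless a channel is named.

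C and CC shared slide 1 and M and MM shared slide 2, so exposure and slide cannot be told apart in M minus C, in MM minus CC, or in differences built from both slides. CC minus C and MM minus M each lie within 1 slide. All 15 hepatocyte markers were well above background on all 16 arrays, with a mean log2 ratio of 5.89 to 6.37 per array. Between 35.0% and 41.9% of probes per array were well above background in liver. Within each slide row, spots of 1 probe varied most on the array in the first column (CC 1, C 11, M 5 and MM 3). Across rows this did not hold, since the median coefficient of variation was 27.9% on M 7, in a second column, against 20.9% on CC 1 and 21.1% on M 5. In whole liver, fewer cells of a type and less RNA per cell cannot be told apart.

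Each of the 5 genes had a single probe, well above background in the liver channel on 16 of 16 arrays. The probe was spotted in 2 places for every gene but Akr1c14, which had 10 spots. In the reference channel Akr1c13 and Akr1c14 were above background on all 16 arrays, Akr1c2 on 13, Akr1d1 on 9 and Akr1c1 on 2. The ratios of Akr1c1, Akr1c2 and Akr1d1 therefore rest on a denominator close to background. That of Akr1c13 rests on a dim liver signal on most M arrays, given below.

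Akr1c1, listed in the gene table also as Hsd17b5, a 17beta-hydroxysteroid dehydrogenase, was highest in C and lowest in M. In C the 4 log2 ratios were 7.11, 7.06, 7.65 and 7.06 (replicates 9 to 12), with a mean of 7.22 ± 0.28 (SD, n = 4). In CC they were 6.81, 6.68, 6.89 and 6.59 (replicates 1 to 4), with a mean of 6.74 ± 0.13. All 4 CC arrays lay below all 4 C arrays. The M arrays gave 6.31, 6.15, 6.36 and 6.38 (replicates 5 to 8), with a mean of 6.30 ± 0.10, and the MM arrays 6.50, 6.83, 6.98 and 6.58 (replicates 1 to 4), with a mean of 6.72 ± 0.22. Every M array lay below every array of the other 3 groups, while CC and MM overlapped.

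Akr1c2, listed also as Akr1c21, was likewise highest in C and lowest in M, with a wider spread. The C arrays lay close together at 7.15, 6.92, 6.89 and 6.88, with a mean of 6.96 ± 0.13. CC ran lower and wider at 6.77, 5.77, 6.37 and 5.63, with a mean of 6.14 ± 0.53. The C arrays lay above all arrays of the other 3 groups. In M the values were 3.65, 5.50, 5.37 and 6.24, with a mean of 5.19 ± 1.09, so that M 5 stood far below the rest. In MM they were 5.90, 6.85, 6.32 and 5.82, with a mean of 6.22 ± 0.47. CC, M and MM overlapped one another.

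Akr1c13 had C values of 3.13, 2.68, 3.24 and 3.01, with a mean of 3.01 ± 0.24, and CC values of 2.65, 2.17, 2.64 and 2.05, with a mean of 2.38 ± 0.31. The highest CC array lay just below the lowest C array. The M arrays gave 0.97, 0.93, 1.70 and 2.85, with a mean of 1.61 ± 0.90. Of these, M 8 lay within the range of the C group and the other 3 lay below every other array on either slide. MM gave 2.34, 3.13, 2.65 and 1.88, with a mean of 2.50 ± 0.52, which overlapped each of the other groups.

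Akr1c14 stayed level. Its mean log2 ratio was 3.31 ± 0.28 in C, 3.43 ± 0.28 in CC, 3.25 ± 0.30 in M and 3.14 ± 0.03 in MM, and all groups overlapped. Akr1d1 had means of 6.13 ± 0.53 in C, 6.14 ± 0.46 in CC, 5.73 ± 0.64 in M and 5.53 ± 0.27 in MM, again with overlap between all groups. Neither gene followed the order seen for Akr1c1, Akr1c2 and Akr1c13.

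**Figure D1:**
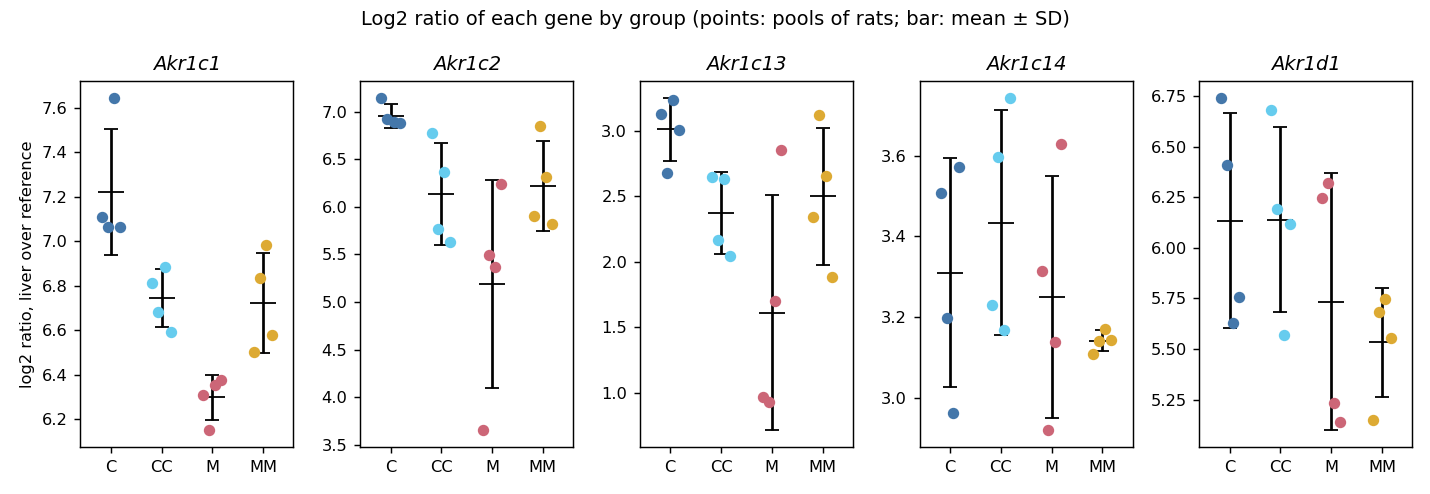
Log2 ratio of liver over reference (vertical axis, a separate scale for each gene) for the 5 genes in the groups C, CC, M and MM. Points are arrays, each a pool of 2 rats, and bars give the mean ± SD of 4 arrays. Akr1c1 had its 4 lowest arrays in M, Akr1c2 and Akr1c13 spread most widely there (SD 1.09 and 0.90), and the groups of Akr1c14 and Akr1d1 overlapped.

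The comparison CC minus C asked how adoption at birth bears on the adult liver in control litters. Akr1c1 differed by -0.48 ± 0.14 (SE), 1.39-fold lower in CC, Akr1c2 by -0.82 ± 0.41 and Akr1c13 by -0.64 ± 0.35. Akr1c14 differed by 0.12 ± 0.16 and Akr1d1 by 0.00 ± 0.31. Groups did not overlap for 3 of the 5 genes, all 3 lower in CC, and for 0.496% of all features in that direction. No feature passed limma's Benjamini-Hochberg adjusted threshold of 0.05 (0% called, 106 features at an unadjusted p under 0.05).

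The same question in exposed litters was put by MM minus M, and there the 3 genes stood on the other side. Akr1c1 differed by 0.43 ± 0.14, 1.34-fold higher in MM, Akr1c2 by 1.03 ± 0.41 and Akr1c13 by 0.89 ± 0.35. Akr1c14 differed by -0.11 ± 0.16 and Akr1d1 by -0.20 ± 0.31. Groups did not overlap for Akr1c1 alone among the 5, against 0.37% of all features in the upward direction, and limma again called 0% of features (197 at an unadjusted p under 0.05). M 5 carried much of the Akr1c2 value, which was 0.52 without it.

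Set against each other, (MM minus M) minus (CC minus C) came to 0.90 ± 0.19 for Akr1c1, 1.85 ± 0.58 for Akr1c2 and 1.53 ± 0.49 for Akr1c13. For Akr1c14 it was -0.23 ± 0.23 and for Akr1d1 -0.20 ± 0.44. The median over all 11092 features was 0.01. limma called 0% of features here too (191 at an unadjusted p under 0.05), so the opposite signs of fostering in control and exposed litters describe these arrays and rest on no call.

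M minus C, the comparison of exposure without adoption, held the widest gaps. Akr1c2 was 3.40-fold lower in M (-1.77 ± 0.41), Akr1c13 2.64-fold lower (-1.40 ± 0.35) and Akr1c1 1.90-fold lower (-0.92 ± 0.14). Akr1c14 differed by -0.06 ± 0.16 and Akr1d1 by -0.40 ± 0.31. Those first 3 were among the called features, which made up 4.2% of all tested (2.62% lower in M). M and C did not overlap for Akr1c1 and Akr1c2, as for 6.61% of all features in the downward direction. Since the genes were chosen with results of these arrays known, the calls on them are descriptions and no independent test. Nor were the calls firm. Of 13 other ways of processing or splitting the arrays, Akr1c1 stayed called in 10, Akr1c2 in 8 and Akr1c13 in 6, and in the liver channel alone and within row 2 none of the 3 did. With 1 array left out in turn, Akr1c1 stayed called in 16 of 16 fits, all of which reuse most of the same arrays. Akr1c2 lost its call without C 9, C 10, C 11 or C 12, and Akr1c13 without any of these or without M 5, M 6 or M 7.

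Markers of cell types were counted in the same comparison, where 43.4% of all features lay above 0 (median -0.03) and 4.2% were called. At that share, 1 call in a list sets no list apart. All 7 tested erythroid markers, of 12 listed, lay below 0 in M minus C (median -0.61), and Hbb-b1, a beta globin, was called lower (-0.89 ± 0.24, limma adjusted p = 0.049). Their mean log2 ratio ran from 2.22 to 2.35 in C, 1.99 to 2.41 in CC, 1.86 to 2.08 in M and 1.77 to 2.63 in MM, and correlated at 0.35 with Akr1c1, 0.34 with Akr1c2 and 0.40 with Akr1c13 once slide means were removed (n = 16). All 15 hepatocyte markers lay below 0 too (median -0.18), with the iron carrier Tf called lower (-0.58 ± 0.16, limma adjusted p = 0.048; liver channel -0.26, reference channel 0.32). Of 10 tested stellate cell markers, 7 lay below 0 (median -0.07) and Pdgfrb, a growth factor receptor, was called lower (-0.48 ± 0.09, limma adjusted p = 0.00527). The mean of these 10 ran from -0.91 to -0.76 in C, -0.87 to -0.79 in CC, -0.95 to -0.79 in M and -0.92 to -0.84 in MM, and correlated at 0.26 with Akr1c1, -0.29 with Akr1c2 and -0.20 with Akr1c13. Below 0 lay 6 of 11 tested Kupffer cell and macrophage markers, 2 of 4 cholangiocyte markers and 1 of 3 lymphocyte markers, and none was called. The part of any of these cells in the differences of the Akr1c genes was not tested.

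Between the adopted groups, MM minus CC, the same 3 genes lay close together. The difference was -0.02 ± 0.14 for Akr1c1, 0.09 ± 0.41 for Akr1c2 and 0.13 ± 0.35 for Akr1c13. Akr1c14 differed by -0.29 ± 0.16 and Akr1d1 by -0.60 ± 0.31. None of the 5 was called, against 0.893% of all features, and none had separate groups, against 6.55%. M minus C and the fostering contrasts share the C or M arrays, so their values for a gene are not independent of each other.

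Each slide had 2 rows of arrays, and each row held 2 arrays of every group on that slide, so every difference can be taken within rows. In row 1 and row 2, CC minus C was -0.34 and -0.61 for Akr1c1, -0.76 and -0.88 for Akr1c2, and -0.49 and -0.78 for Akr1c13. MM minus M was 0.44 and 0.42 for Akr1c1. For Akr1c2 it was 1.80 in row 1 and 0.26 in row 2, and for Akr1c13 1.79 and -0.01. The MM minus M gap of Akr1c2 and Akr1c13 thus lay mainly in row 1, which held M 5 and M 6. M minus C kept its sign in both rows, at -0.86 and -0.99 for Akr1c1, -2.46 and -1.08 for Akr1c2, and -1.96 and -0.85 for Akr1c13.

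Position on the slide was a comparison that had no part in choosing the genes. Akr1d1 was lower in row 2 than in row 1 by a log2 difference of -0.59 ± 0.16 (limma adjusted p = 0.00902), where 42.4% of all features were called and 22.3% were lower in row 2. The adjusted p was 0.0594 without the 4 arrays of the first slide column and 0.933 with the scanner software's ratio. Its MM minus M difference was -0.87 in row 1 and 0.47 in row 2. The other 4 genes did not pass, with limma adjusted p-values of 0.271 for Akr1c1, 0.761 for Akr1c2, 0.422 for Akr1c13 and 0.685 for Akr1c14.

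Liver held more signal than the reference RNA for all 5 genes (limma, 50.7% of all features called higher and 92.4% called in either direction), though without a dye swap the dye and the RNA cannot be told apart. Akr1c13 was 5.19-fold higher in liver (2.38 ± 0.12 on the log2 scale, limma adjusted p = 6.31e-12) and Akr1c14 9.74-fold higher (3.28 ± 0.06, limma adjusted p = 2.02e-18). Both sizes depended on the processing, with log2 values from 1.43 to 3.56 for Akr1c13 and from 2.25 to 4.91 for Akr1c14. For Akr1c1, Akr1c2 and Akr1d1 no fold is given, since their reference signal was not above background on every array.

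The spread between pools of 1 group set the genes apart as well. Akr1c2 had a within-group SD of 0.66, at the 99.4th percentile of all tested features (median 0.18), and an 11.3-fold range over the 16 arrays. M 5 carried much of this, since without it the SD was 0.43, at the 95.7th percentile, and the range 3.42-fold. Akr1c13 stood at the 98.7th percentile (SD 0.56, 4.96-fold range) and Akr1d1 at the 97.6th (SD 0.49, 3.04-fold range). Akr1c14 at the 73.7th percentile (SD 0.25) and Akr1c1 at the 57.0th (SD 0.20) were closer to the middle. The 2 spots of Akr1c2 differed as well, with an SD of their log2 ratios of up to 1.08, on MM 3, and a median of 0.28 over the arrays.

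Akr1c2 and Akr1c13 varied together from pool to pool. After the group means were removed, their log2 ratios correlated with Pearson's r = 0.75 and Spearman's rho = 0.68 (n = 16 arrays), with r = 0.60 without the 2 arrays farthest from the median and r = 0.78 without M 5. The arrays fell in the same order for both genes in CC and in MM, but not in C or M. Akr1c1 went with Akr1c13 (r = 0.51, rho = 0.67) more than with Akr1c2 (r = 0.25, rho = 0.44). Akr1c14 correlated at r = -0.09 with Akr1c2 and at 0.23 with Akr1c13, and Akr1d1 at -0.18 and -0.45. Without M 5, Akr1c1 and Akr1c2 correlated at 0.43, and Akr1c2 and Akr1d1 turned to 0.15. These are descriptions over arrays that share slides and normalisation, with no p-value.

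**Figure D2:**
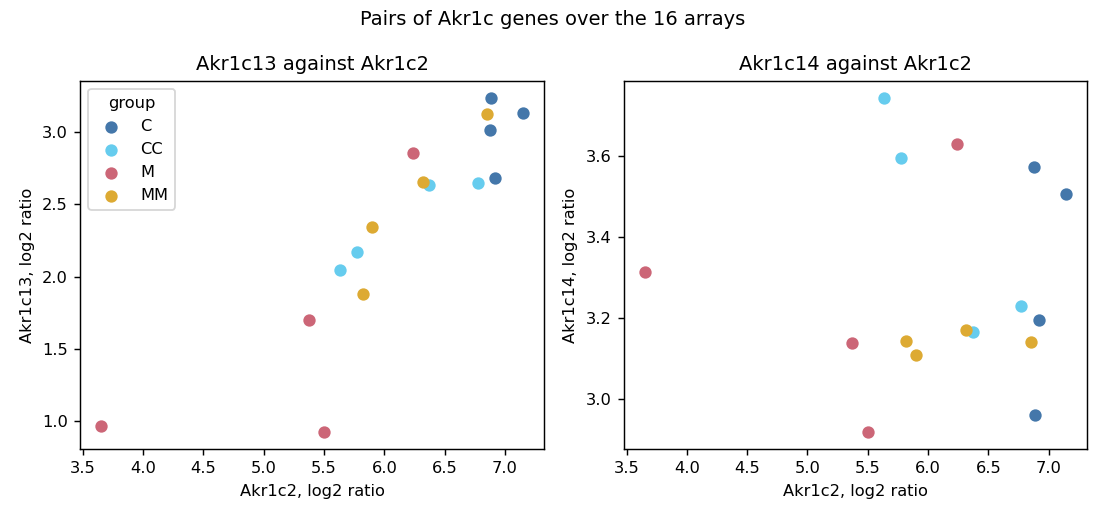
Log2 ratios of Akr1c13 (left) and Akr1c14 (right) against that of Akr1c2 over the 16 arrays, coloured by group. Akr1c13 was higher where Akr1c2 was higher within groups (r = 0.75 after removing group means), with M 5 at the lower left, whereas Akr1c14 did not (r = -0.09).

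With slide means removed, r between Akr1c2 and Akr1c13 was 0.85, and no other feature among the 11092 came as near to either, the nearest reaching 0.78 for Akr1c2 and 0.75 for Akr1c13. This measure keeps the CC minus C and MM minus M differences, known when the genes were chosen, so the ranking is a description. No such ranking was made with group means removed. By the same measure over 16 arrays, the named genes most like Akr1c2 were Opalin, a myelin membrane protein (0.78), Alkbh3, a nucleic acid demethylase (0.74), and Ubfd1 (0.66). Nearest to Akr1c13 were Nvl, a nuclear ATPase (0.75), Ubfd1 (0.71) and Dnajb12, a co-chaperone (0.69). Akr1c1 was most like Cox5b, a subunit of cytochrome c oxidase, and Ubfd1 (both 0.84), followed by Gpx8, a glutathione peroxidase (0.79). Akr1c14 kept other company, with the proteoglycan Sdc4 (0.83), the hepatocyte transcription factor Hnf4a (0.82) and the magnesium transporter Slc41a2 (0.81). In the liver channel alone the values with Akr1c1 were 0.64 for Cox5b, 0.86 for Ubfd1 and 0.40 for Gpx8. In the order named above they were 0.80, 0.82 and 0.74 with Akr1c2 and 0.56, 0.70 and 0.76 with Akr1c13. With Akr1c14 they were 0.87, 0.66 and 0.77.

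In the gene table the order on chromosome 17 was Akr1e2, Akr1c2, Akr1c1, AKR1C3l1, Akr1c12l1, Akr1c13, Akr1c19, Akr1c12, Akr1c3, Akr1c14 and Akr1c15, and all 11 genes were tested. Of the 6 genes here that belonged to a list of other aldo-keto reductases, none was called in any of the 5 group comparisons, where at most 4.2% of all features were. Their M minus C differences ran from -0.30 ± 0.17 (Akr1c12l1) to 0.16 ± 0.19 (Akr1c3), and their MM minus M differences from -0.38 ± 0.19 (Akr1c3) to 0.09 ± 0.10 (Akr1c19). Over all features the median size of a difference was 0.12 in M minus C and 0.07 in MM minus M. Akr1c12 held means of 5.01 ± 0.04 in C, 4.92 ± 0.05 in CC, 4.95 ± 0.21 in M and 4.93 ± 0.20 in MM.

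AKR1C3l1, the neighbour of Akr1c1, was singled out after its values were seen. It ran the other way, with means of 0.36 ± 0.31 in C, 0.93 ± 0.26 in CC, 0.82 ± 0.29 in M and 0.51 ± 0.47 in MM. With slide means removed its log2 ratio correlated at r = -0.84 with Akr1c1, -0.71 with Akr1c2 and -0.74 with Akr1c13 (n = 16), and in the liver channel alone at -0.87 with Akr1c1. Its probe was well above background in liver on 9 of 16 arrays.

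**Figure D3:**
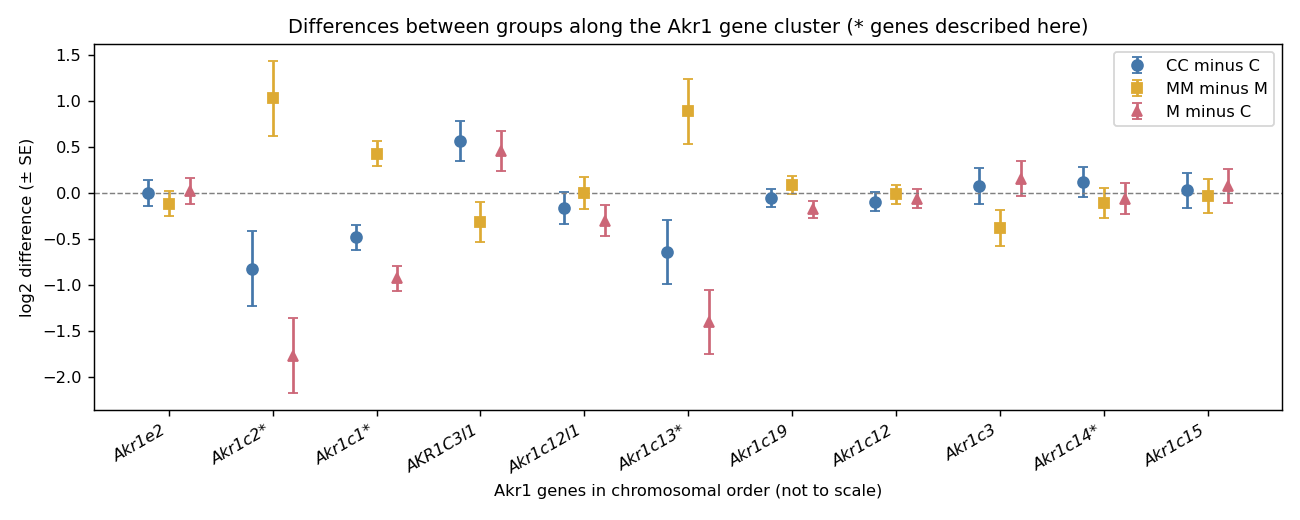
Log2 differences ± SE (vertical axis) for the 11 Akr1 genes of the cluster in chromosomal order, for CC minus C, MM minus M and M minus C. Akr1c2, Akr1c1 and Akr1c13 lay below 0 in CC minus C and M minus C and above 0 in MM minus M, AKR1C3l1 did the reverse, and Akr1c12, between Akr1c19 and Akr1c3, lay within 0.10 of 0 in all 3.

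The contrast between Akr1c13 and Akr1c12 is shown in sequence because their promoters were the most alike of the 10 cluster promoters at hand. The sequences are RefSeq's on GRCr8, from 250 bases before to 50 bases after each gene's start, 5′ to 3′ on the gene's own strand. Capitals mark the longest run that both share, 66 bases. The Akr1c13 promoter is at chr17:70894386-70894685 on the plus strand and the Akr1c12 promoter at chr17:70971363-70971662 on the minus strand.
Akr1c13: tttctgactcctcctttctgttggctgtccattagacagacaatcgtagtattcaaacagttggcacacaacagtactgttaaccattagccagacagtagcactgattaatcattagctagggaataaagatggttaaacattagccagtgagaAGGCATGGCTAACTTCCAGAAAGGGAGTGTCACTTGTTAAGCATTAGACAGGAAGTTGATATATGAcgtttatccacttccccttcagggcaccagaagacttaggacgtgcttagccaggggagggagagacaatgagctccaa
Akr1c12: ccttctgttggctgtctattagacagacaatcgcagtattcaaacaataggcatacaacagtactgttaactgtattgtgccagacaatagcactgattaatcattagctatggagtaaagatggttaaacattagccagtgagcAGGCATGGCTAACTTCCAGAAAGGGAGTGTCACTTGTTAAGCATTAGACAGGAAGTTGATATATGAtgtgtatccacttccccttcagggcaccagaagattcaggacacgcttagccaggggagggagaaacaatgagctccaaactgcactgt

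These promoters were identical at 269 of 313 aligned positions (85.9%). The M minus C difference was -1.40 ± 0.35 for Akr1c13 and -0.06 ± 0.11 for Akr1c12. Akr1c12l1, whose promoter was 79.9% identical to that of Akr1c13, differed by -0.30 ± 0.17. The promoter of Akr1c2, the gene most correlated with Akr1c13, was 50.3% identical to it, within the 46.6% to 53.9% found for all cluster pairs apart from those among Akr1c12, Akr1c12l1 and Akr1c13. Promoters were matched for 3 of the 5 genes, Akr1c2, Akr1c13 and Akr1c14. The letters TGACNNNGC, the core of the antioxidant response element bound by NRF2, were searched on both strands as the sole motif, and 12.1% of 33469 promoters of this length held them. Among the 10 cluster promoters they occurred in that of Akr1c15 alone. The Akr1c12 and Akr1c13 symbols have been exchanged between gene tables, and both genes were matched here by accession. Reading of one gene's RNA by the other's probe was not tested, nor was any part of the promoters in these differences.

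Taking the channels apart, the liver (Cy5) channel alone gave Akr1c1, Akr1c2 and Akr1c13 the same signs as the log ratio in CC minus C, MM minus M and M minus C. CC minus C was -0.52 for Akr1c1, -1.16 for Akr1c2 and -0.57 for Akr1c13. MM minus M was 0.52, 1.26 and 0.80 in the same order, and M minus C -0.80, -2.02 and -1.24. MM minus CC was 0.24, 0.40 and 0.13, where the log ratio of Akr1c1 had been -0.02. Unlike in the log ratio, M and MM overlapped for Akr1c1 in the liver channel, with M 7 at 11.79 and MM 1 at 11.78. Akr1c14 stayed between -0.16 and 0.09 in these 4 comparisons, and Akr1d1 between -0.27 and -0.01.

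The reference (Cy3) channel, which held the same RNA on every array, did not stay level for Akr1c2. After local background was subtracted, its liver signal averaged 4355 ± 912 intensity units in C, 1885 ± 792 in CC, 1434 ± 1259 in M and 2619 ± 1770 in MM. Its reference signal averaged 50.8 ± 4.17, 30.1 ± 7.99, 29.0 ± 16.1 and 38.1 ± 13.3 in the same order. The normalised channels correlated at r = 0.80 over the 16 arrays, and at 0.86 once group means were removed. A value of 0.80 or more was found in 2.95% of all features (median 0.16) and in 8.44% of the 225 features with a mean log2 ratio of 5 or more (median 0.35). The reference side thus followed the liver side at a small share of its size, and the cause was not tested. The reference channel of other genes differed too. Akr1d1 was higher there by 0.23 in M minus C and 0.34 in MM minus CC, beside log ratio differences of -0.40 and -0.60, and Akr1c1 by 0.12 and 0.26. Akr1c13 differed there by 0.16 in M minus C and Akr1c14 by 0.13 in MM minus CC.

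The ratio of Akr1c2 was read otherwise by the scanner software, which applies its own background and dye correction. Leaving out background subtraction but keeping loess gave -1.77 in M minus C and 1.13 in MM minus M. The scanner software's own ratio stayed between 7.90 and 9.19 on all 16 arrays and correlated at r = -0.01 with the liver channel. By that ratio Akr1c2 differed by 0.06 in CC minus C, 0.17 in MM minus M, -0.16 in M minus C and 0.12 in the difference between the fostering contrasts, and the cause was not tested. Akr1c1 was also affected, with -0.04 in CC minus C and 0.59 in the difference between the fostering contrasts. For Akr1c13, whose reference signal was above background on every array, the scanner ratio correlated at r = 0.98 with the liver channel and gave -1.61 in M minus C and 1.18 in MM minus M. Its liver signal, however, was dim on most M arrays. After local background was subtracted it was 54.25 intensity units on M 5, 55.25 on M 6 and 104 on M 7. The local background there was 70, 74 and 68. On M 5 and M 6 the liver signal lay below the reference signal (71 and 64.5). It was 332.5 on M 8 and averaged 299.9 in C. The part of this dimness in the differences was not tested. Akr1d1 read -1.09 in M minus C and -1.39 in MM minus CC by the scanner ratio, the latter a call by limma, against -0.17 and -0.27 in the liver channel.

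**Figure D4:**
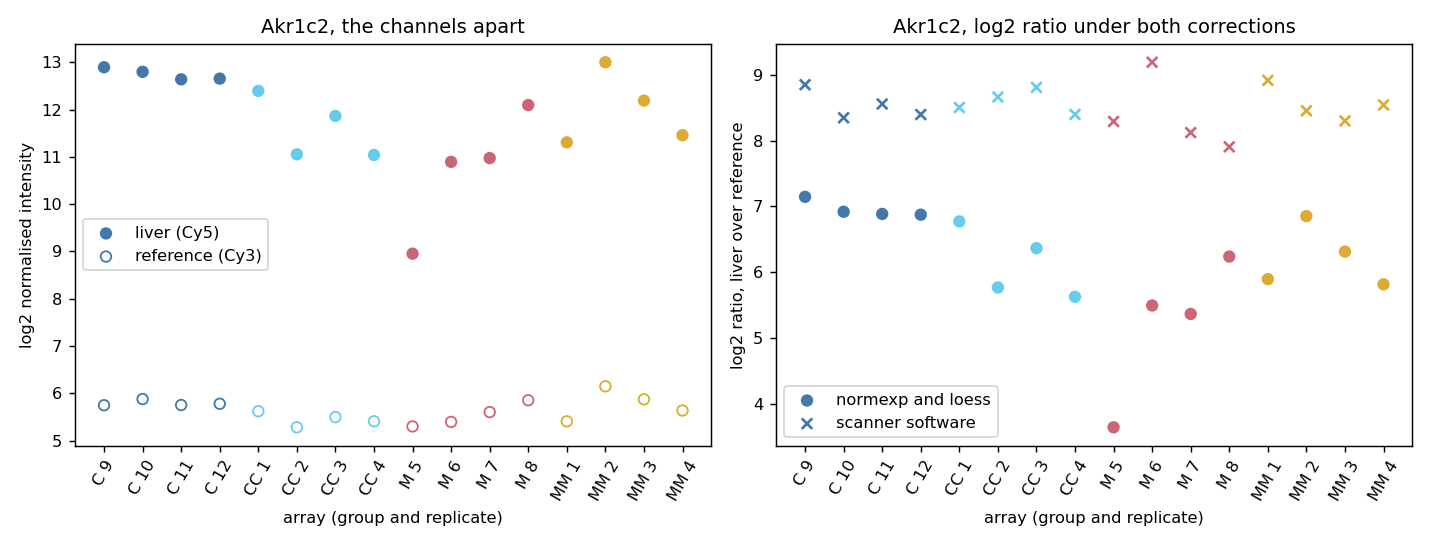
Akr1c2 on the 16 arrays. Left, log2 normalised intensity of the liver channel (filled) and of the reference channel (open), which varied together (r = 0.80). Right, the log2 ratio after normexp and loess (dots) and from the scanner software (crosses, 7.90 to 9.19), coloured by group.

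Genes of the pathways around these enzymes were counted against the shares called over all features, which were 4.2% in M minus C, 0.893% in MM minus CC and 0% in the other 3 group comparisons. With shares that low, 0 or 1 call in a list of this size sets no list apart. Among other aldo-keto reductases 10 of 17 listed were tested and limma called none in the 5 group comparisons, the nearest being Akr1a1, the aldehyde reductase, in M minus C (0.28 ± 0.09, limma adjusted p = 0.0975). Among other carbonyl-reducing enzymes 13 of 20 were tested and none was called. The median M minus C difference was 0.05 for the first list and 0.06 for the second, beside -0.03 over all features.

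Steroid hormone metabolism had 28 of 39 genes tested and 1 called, Cyp2c13, a male-specific steroid hydroxylase, lower in M than in C (-0.77 ± 0.18, limma adjusted p = 0.022). Its liver channel differed by -0.22 and its reference channel by 0.55. The list's median was -0.13 in M minus C. Bile acid synthesis and transport, the pathway of Akr1d1, had 20 of 21 genes tested and none called, with a median of -0.09.

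Targets of NRF2, the regulator of the antioxidant response, had 30 of 35 genes tested and none called in any group comparison, with a median of -0.04 in M minus C. Nearest to the threshold in M minus C was the glutathione transferase Gstm4 (0.51, limma adjusted p = 0.052). Targets of CAR and PXR, the nuclear receptors that switch on drug metabolism, had 14 of 17 tested and 1 called. This was Por, the electron donor of microsomal cytochromes P450, higher in M than in C (0.94 ± 0.25, limma adjusted p = 0.043; liver channel 0.59, reference channel -0.35). The list's median was -0.06.

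Of the cell type lists, sinusoidal endothelium had the largest correlations with Akr1c1, Akr1c2 and Akr1c13. Its values are those of a list picked from several, and are a description. Its markers, taken as a mean, correlated negatively with these 3 genes over the arrays. Of 12 listed, 8 were measured and 7 tested (Cdh5, Eng, Fcgr2b, Kdr, Lyve1, Oit3 and Pecam1), while Tek was above background on 0 arrays. Their mean log2 ratio ran from 1.27 to 1.57 in C, 1.45 to 1.63 in CC, 1.46 to 1.55 in M and 1.28 to 1.58 in MM. Of the 7, all lay above 0 in CC minus C (median 0.15, beside 46.1% of all features above 0), 3 in MM minus M (median -0.01) and 4 in M minus C (median 0.06). Their direction was thus opposite to the 3 genes in CC minus C but mixed in the comparisons where those genes differed most. With slide means removed this mean correlated at r = -0.83 with Akr1c1, -0.65 with Akr1c2 and -0.75 with Akr1c13 (rho = -0.72, -0.76 and -0.81, n = 16), and at 0.28 with Akr1c14 and 0.24 with Akr1d1. Eng, the endothelial co-receptor endoglin, was called in M minus C (0.66, limma adjusted p = 0.023), and without it the first 3 values were -0.68, -0.56 and -0.70. In the liver channel alone they were -0.81, -0.68 and -0.73. Removing slide means left the CC minus C and MM minus M differences in all these values. Gene by gene the markers were uneven. With Akr1c1, 6 of the 7 lay below 0, from -0.75 (Eng) to 0.15 (Pecam1). With Akr1c2, 6 lay below 0, from -0.59 (Lyve1) to 0.03 (Cdh5). With Akr1c13 all 7 did, from -0.67 (Lyve1) to -0.17 (Pecam1). The mean of the 15 hepatocyte markers correlated at -0.18, 0.16 and 0.08 with the same 3 genes. That of 11 Kupffer cell and macrophage markers correlated at -0.30, -0.20 and -0.22. For 4 cholangiocyte markers the values were 0.35, 0.05 and 0.23, and for 3 lymphocyte markers 0.25, -0.14 and -0.15. The lymphocyte mean correlated at -0.59 with Akr1c14. The part of endothelial RNA in the differences of Akr1c1, Akr1c2 and Akr1c13 was not tested.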

How the data were processed

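Liver RNA from 16 pools of 2 rats, 4 per group, was measured against a common reference on two-colour arrays. The deposited scanner files hold red and green median intensities of each spot and its surroundings, written by Agilent Feature Extraction 11.0.1.1 (array design 028279), per the file headers, and a log10 ratio of red over green that the authors' scanner software had background- and dye-corrected. The authors' deposited value table is on a log2 scale, as worked out here from its correlation of 0.989 to 0.996 with loess ratios without background subtraction. Its making is not stated in these sources. Its array medians ran from -0.04 to -0.03, and its centring is unknown.

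Mean spot signals had been planned, but the files used hold medians. Intensities were corrected with normexp (offset 50) and loess within arrays (limma 3.58.1, R 4.3.3), with control spots at weight 0. Outlier spots (732 to 1138 per array) were left out and replicate spots averaged. Names were matched by accession to RefSeq's GRCr8 gene table (18005 of 30367 probes), and the brightest probe of each of 26913 names was kept. Features well above background in liver on at least 3 of 4 arrays of a group were tested (11092), with 4 group means on 16 arrays, 12 residual degrees of freedom and Benjamini-Hochberg adjusted p-values, called under 0.05. Separate channels were taken after loess and Aquantile normalisation. On simulated data 98% of 200 features changed by log2 1.5 in CC minus C were called, beside 14 false calls among the unchanged features. The simulated noise was independent between arrays, with no slide or row effect. The run therefore checks the fit and says nothing of smaller changes. MM and CC share replicate numbers in the labels, and deviations of same-numbered arrays correlated at 0.16 to 0.58. These arrays also lie in the same row of their slides, though not in the same column, and what made them correlate was not tested. The numbers were taken as pairs only in the replicate-block alternative, not in the main fit.

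The 5 genes and the gene lists were chosen with earlier results of these data known. Other named genes are up to 3 per list with the lowest p in any group comparison, the 3 most correlated with each Akr1c gene, and the cluster's neighbours. The alternatives were no background subtraction, the scanner ratio, the authors' table, median centring, the liver channel alone, other filters on dim probes, all probes, slide row as a block or split, the replicate block and each array left out. Slide column as a term and leaving out the first slide column were added after seeing the data. The number of arrays limits the precision.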

Additional observations from a re-analysis of the deposited data

Results flagged for a closer look

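Of 20 sets of 4 arrays examined (5 genes in 4 groups), 2 held an array whose gap to the rest, as a share of the group's range, was above Dixon's 95% critical value, and chance gives this in about 1 set in 20. For Akr1c1, C 11 had a log2 ratio of 7.65, above the 7.06 to 7.11 of the other C arrays. C 11 lies in the first column of its slide row, where spots of a probe varied most within that row. Without C 11, Akr1c1 still differed by -0.34 in CC minus C and -0.78 in M minus C. For Akr1c2, C 9 had 7.15, above the 6.88 to 6.92 of the other C arrays.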

How the results depend on the processing

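Among the 5 genes' values under all alternatives, 949 counted as unchanged and 24 group differences moved by more than the within-group SD. The other 2, tests of Akr1d1 between slide rows, lost their call. For group differences, unchanged meant a shift below that SD. For slide rows and liver over reference it meant only that the call stayed the same, whatever the shift. Akr1c13 in liver over reference, for example, ran from 1.43 (median centring) to 3.56 (scanner ratio), and Akr1c14 from 2.25 to 4.91 under the same 2 settings. Over the alternatives that kept all or most arrays, Akr1c13 ran from -1.61 to -1.02 in M minus C and from 0.62 to 1.18 in MM minus M, and Akr1c1 from 0.34 to 0.55 in MM minus M. Akr1c2 ran from -2.02 to -0.16 in M minus C, the smallest by the scanner ratio, which also put its CC minus C difference at 0.06 in place of -0.82. The cause was not tested. Akr1c1 in MM minus CC was 0.24 in the liver channel.

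Counts of called features were 0 in CC minus C, MM minus M and the difference between them, 466 in M minus C, 99 in MM minus CC, 4701 between rows and 10249 for liver over reference. The scanner ratio gave 1 in CC minus C, 1366 in M minus C (525 higher, 841 lower, against 175 and 291), 491 in MM minus CC and 0 between rows. Median centring gave 176 in MM minus CC (111 higher, 65 lower, against 32 and 67) and 2523 between rows. The liver channel alone gave 27 in M minus C (23 higher, 4 lower) and 18 in MM minus CC. Without the filter on dim probes, 18488 were called for liver over reference. Slide row as a random block gave 86 in M minus C and 14 in MM minus CC, row 1 alone gave 187 in M minus C, and row 2 alone 4 and 1. Without the 4 arrays of the first slide column the counts were 253, 27 and, between rows, 2446. Pairing MM and CC by the replicate block gave 135 in MM minus CC and changed no call of the 5 genes. The causes were not tested, beyond the fewer arrays of the splits.

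With 1 array left out, counts ran from 214 to 541 in M minus C, 37 to 108 in MM minus CC, 4251 to 4807 between rows and 10171 to 10236 for liver over reference, and stayed at 0 in the other 3. M minus C fell by over 1.5 times without C 9 (301), C 10 (287), C 11 (283), C 12 (288), M 5 (298), M 6 (278) or M 8 (214), and MM minus CC without CC 1 (44), CC 2 (37), CC 3 (54), MM 2 (50) or MM 4 (40).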
